A study of Mus musculus with 6 samples.

Results

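Hmox1, Blvrb, Fth1, Ftl1, Tfrc, Slc11a1, Slc40a1, Mt1 and Mt2, the 9 heme, iron and metal-binding genes described here, were found by their symbols among the 32285 genes listed. Each library held single cells of 1 mouse, and each of the 6 conditions had 1 library. Cells of the mouse ovarian cancer line KPCA, which is proficient in homologous recombination, carries mutant Trp53 and overexpresses Ccne1 and Akt2, were placed in the ovarian bursa of female C57BL/6 mice aged 6 to 8 weeks, and the tumors were digested on day 30. All 6 mice thus carried the same grafted line in an immunocompetent host. The sample labels instead name the tissue as lymph node, and the series text speaks of young and aged mice. The control mouse received the solvents and rat IgG. The 2DG mouse received 2-Deoxy-D-glucose at 500 mg/kg every 2 days from day 9. This glucose and mannose analog, also known to block glycolysis, served in the study to inhibit branched N-glycans. The study reported no significant effect on glycolysis in cultured cells at the concentration that lowered these glycans. The 2FF mouse received 2F-Peracetyl-Fucose, a fucose analog that blocks fucosylation, by gavage every 2 days, and its tumor cells had been kept in 300 µM 2FF for 3 days before grafting. The aPDL1 mouse received an antibody that blocks PD-L1, a ligand of the T cell checkpoint receptor PD-1, at 5 mg/kg, 2 times a week for 3 weeks, and the last 2 mice received 2DG or 2FF together with this antibody.

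Red cells and dying cells leave heme, which macrophages and related myeloid cells take up. Heme oxygenase 1 (Hmox1) opens its ring and frees the iron. Biliverdin reductase B (Blvrb) is named for the reduction of biliverdin, and it is not taken here as the step after Hmox1. Ferritin, built of heavy (Fth1) and light (Ftl1) chains, stores iron. Transferrin receptor 1 (Tfrc) brings transferrin iron into cells, Slc11a1 (Nramp1) carries iron and manganese across the phagosome membrane, and ferroportin (Slc40a1) is the exporter of iron. Metallothioneins 1 and 2 (Mt1, Mt2) are small cysteine-rich proteins that bind zinc and copper. Hmox1 is a textbook target of the factor Nrf2 and of the repressor Bach1, and Mt1 and Mt2 of the zinc sensor Mtf1.

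Ferritin, ferroportin and transferrin receptor mRNAs carry iron-responsive elements, short hairpins to which iron regulatory proteins bind when iron is low. There they hold back translation from the 5′ end or slow decay from the 3′ end. The elements are shown because their control of the ferritin chains and ferroportin acts mainly on translation, which counts of mRNA do not measure, whereas that of Tfrc acts on the mRNA itself. A hairpin with an unpaired C, 5 paired bases and the loop CAGTGN was searched in the spliced untranslated regions of the GENCODE M21 annotation of GRCm38, the assembly that mm10 names, through the sequences of that annotation. Of the genes with a 5′ untranslated region, 31 of 20580 held such a hairpin (0.151%), and of those with a 3′ region 129 of 20962 did (0.615%). The capitals mark the unpaired C and the loop. The hairpins lay at chr19:9982733-9982759 (plus strand, Fth1 5′), chr7:45459780-45459806 (minus, Ftl1 5′), chr1:45925466-45925492 (minus, Slc40a1 5′) and, in the Tfrc 3′ region on the plus strand, at chr16:32631220-32631246, chr16:32631599-32631625, chr16:32631664-32631690 and chr16:32631711-32631737.
Fth1: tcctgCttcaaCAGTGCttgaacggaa
Ftl1: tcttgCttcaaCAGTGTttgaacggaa
Slc40a1: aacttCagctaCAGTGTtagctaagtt
Tfrc at 32631220: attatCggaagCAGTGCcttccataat
Tfrc at 32631599: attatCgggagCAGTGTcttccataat
Tfrc at 32631664: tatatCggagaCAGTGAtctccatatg
Tfrc at 32631711: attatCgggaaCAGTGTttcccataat

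Mt2 and Mt1 are neighbours on the plus strand of chromosome 8, with 5513 bases between the end of Mt2 (chr8:94172664-94173568) and the start of Mt1 (chr8:94179082-94180327). Their upstream sequences are shown because Mt2 and Mt1 were each other's nearest gene in level, as given below. The 250 bases before the RefSeq start are those of GRCm38.p6, and 7 of the 9 members had such an entry; Hmox1 and Slc40a1 had none. Capitals mark the core of the metal response element (MRE, TGCACNC or TGCGCNC) and the antioxidant response element (ARE, TGACNNNGC), both searched on both strands.
Mt2, chr8:94172368-94172617: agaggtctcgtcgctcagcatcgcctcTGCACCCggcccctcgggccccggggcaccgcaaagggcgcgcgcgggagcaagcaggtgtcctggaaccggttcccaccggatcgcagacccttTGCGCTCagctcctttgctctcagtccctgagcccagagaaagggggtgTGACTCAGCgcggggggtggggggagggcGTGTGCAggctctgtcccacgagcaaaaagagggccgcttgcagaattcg
Mt1, chr8:94178839-94179088: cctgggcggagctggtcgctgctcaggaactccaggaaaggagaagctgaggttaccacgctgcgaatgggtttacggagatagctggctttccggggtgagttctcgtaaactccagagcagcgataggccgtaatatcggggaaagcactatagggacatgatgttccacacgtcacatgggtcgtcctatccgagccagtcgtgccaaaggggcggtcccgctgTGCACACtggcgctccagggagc
The Mt2 window held 3 MRE cores and 1 ARE core, and the Mt1 window 1 MRE core and no ARE core. Of 32851 RefSeq windows of this length, 21.4% held at least 1 MRE core, 1.26% at least 3, and 10.2% at least 1 ARE core. GENCODE also lists a start of Mt1 further downstream, at 94179211, and the 250 bases before that start held 5 MRE cores and 1 ARE core, a count of MRE cores reached by 0.0822% of the RefSeq windows. A match of letters is a description and no measure of binding.

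The files held 57078 cells, of which 51633 had at least 250 genes and at most 5% mitochondrial UMIs (unique molecular identifiers, each counting 1 captured RNA molecule). Kept libraries held 59741689 to 72277591 UMIs, and 43156 cells could be put into a class by fixed marker genes, leaving 15% to 17.7% of each library unassigned. The library of the control mouse stood apart in its makeup, with 2736 neutrophils against 263 to 477 in the others and 363 T cells against 1684 to 2816. Its monocytes and macrophages were also deeper, with a median of 9679 UMIs per monocyte against 6462 to 8063 and 12153 per macrophage against 8350 to 9405.5. Pairs of libraries shared 16 to 34 barcodes. Monocytes numbered 2304, 881, 1271, 1541, 1461 and 1556 and macrophages 1497, 1356, 2032, 1386, 1802 and 1875 in the order control, 2DG, 2FF, aPDL1, 2DG plus aPDL1 and 2FF plus aPDL1, which is kept for all series of 6 values below. As the classes were set by marker genes, the detection of defining markers follows from the rule and does not test the class names. C1qb was detected in 86.4% of macrophages and 11.6% of monocytes, and Ccr2 in 87.0% of monocytes and 6.7% of neutrophils. Cxcr2 was detected in 65.8% of neutrophils and 1.2% of macrophages, and Cd3e in 88.2% of T cells and 0.8% to 1.7% of the 3 myeloid classes. The cut between monocytes and macrophages ran through a continuum, and 1636 of 18962 cells lay near it (8.63%). Keratin-positive cells numbered only 4 to 24 per library, so the members' levels in tumor cells are poorly measured.

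Levels are given as CPM, a gene's UMIs scaled to a fixed total of all UMIs of its class, so a level cannot tell more RNA per cell from a larger part of a cell's RNA. Hmox1 and Slc11a1 were found mostly in monocytes, macrophages and neutrophils, and Slc40a1 mostly in neutrophils. Mt1 and Mt2 were found mostly in monocytes, macrophages and, for Mt2, the few keratin-positive cells. Tfrc was found mostly in plasmacytoid dendritic cells, lymphocytes and, in the control library, neutrophils. Fth1 and Ftl1 were abundant in every class. Fth1 was among the most abundant transcripts of all, ranking 5 in monocytes and 6 in macrophages and in neutrophils by median CPM. Ftl1 ranked 25, 18 and 28 there. In T cells Fth1 ranked 129 and Hmox1 9212.

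**Figure D1:**
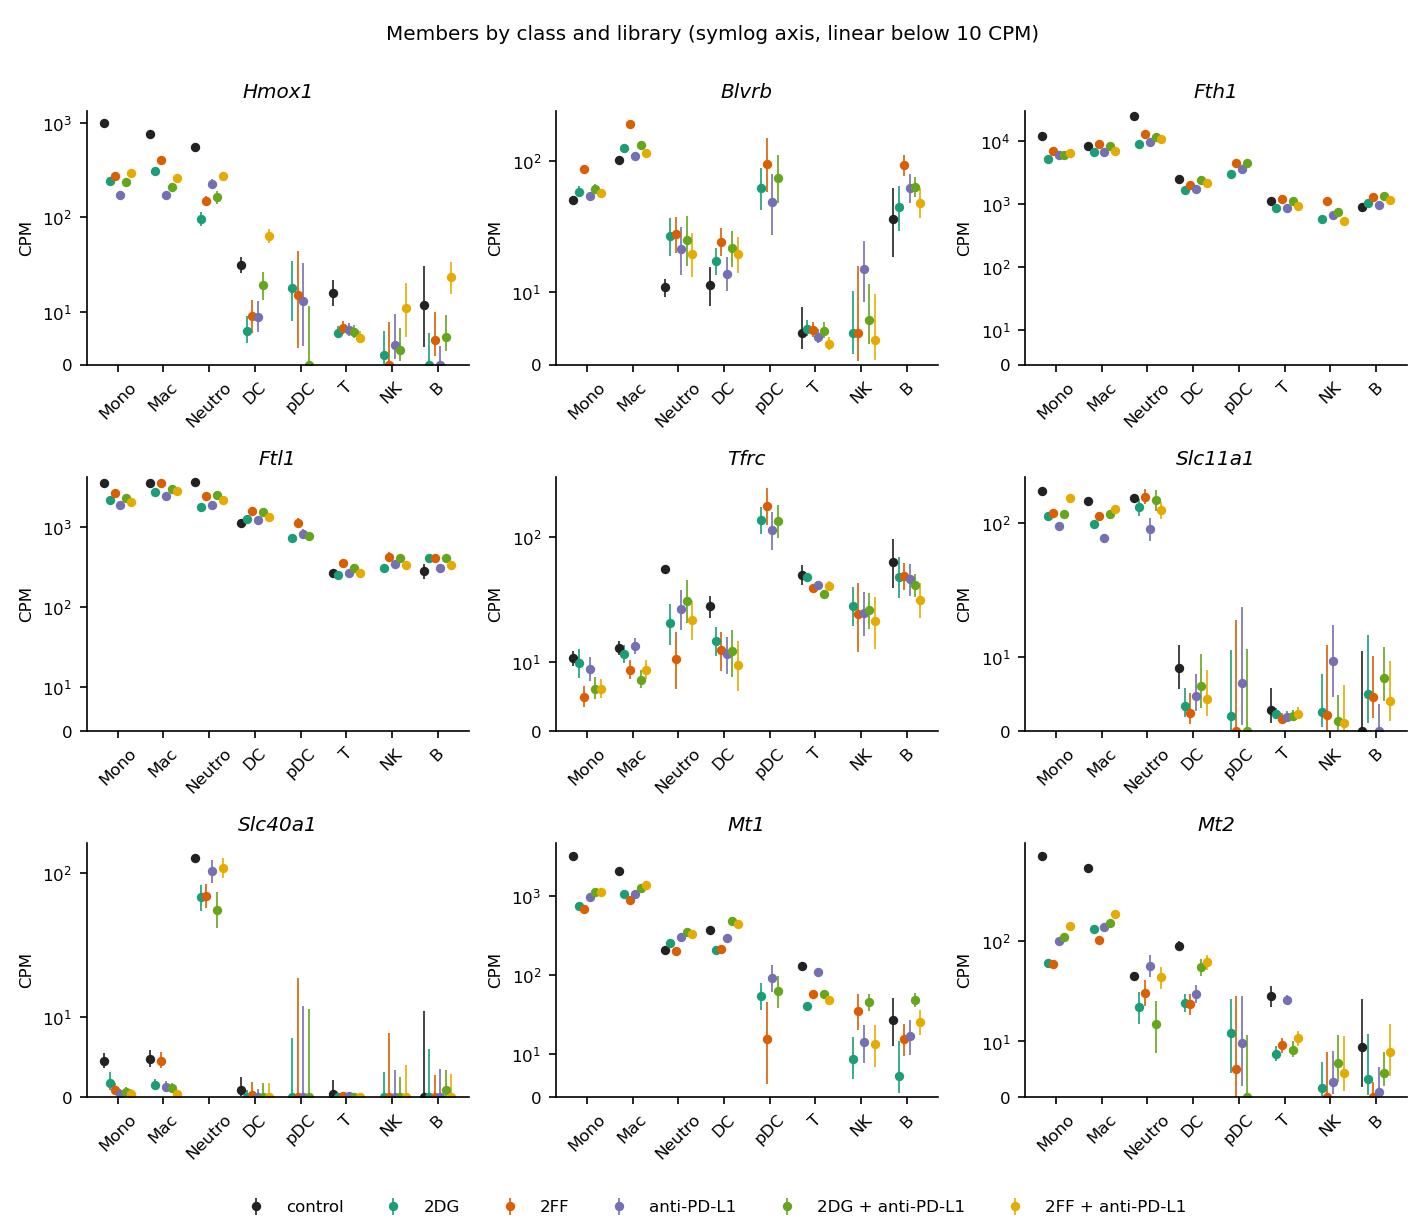
Level of the 9 genes (y axis, CPM, linear below 10 CPM and logarithmic above) in each class (x axis), with 1 point per library of 1 mouse, for class sums of at least 20 cells. Slc40a1 lies at 56.1 to 127 CPM in neutrophils and below 5 CPM in monocytes and macrophages. The control library gives the highest monocyte point of every member except Blvrb.

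Heme breakdown by Hmox1 was described first. Hmox1 stood at 985, 243, 271, 170, 238 and 291 CPM in monocytes, at 750, 306, 406, 174, 208 and 259 CPM in macrophages and at 555, 95.4, 149, 225, 162 and 272 CPM in neutrophils. The control library was the highest in all 3 classes and stood apart from the other 5. The ranges of the 3 classes overlapped, and no difference between them passed the edgeR quasi-likelihood test with the library as a block: macrophages stood at −0.11 from monocytes on the log2 scale (SE 0.13, adjusted p = 0.52) and at +0.26 from neutrophils (SE 0.25, adjusted p = 0.37), and monocytes at +0.30 from neutrophils (SE 0.18, adjusted p = 0.18). The last was called without the aPDL1 library (+0.47, adjusted p = 0.040), and with classes taken from clusters Hmox1 was lower in macrophages than in monocytes (−0.85, adjusted p = 0.0064). Non-classical monocytes followed at 92.4 to 342 CPM. Dendritic cells held 6.36 to 64.0 CPM and T cells 5.15 to 16.0 CPM, ranges that overlapped each other but not those of monocytes, macrophages or neutrophils. After thinning each cell to 2000 UMIs, a Hmox1 UMI was found in 17.6% to 49.3% of monocytes, 23.1% to 43.9% of macrophages and 12.1% to 43.1% of neutrophils, against 0.9% to 4.5% of T cells, a class taken as the background of free RNA. Without thinning these were 39.2% to 73.9%, 53.0% to 74.9%, 16.6% to 60.4% and 3.2% to 8.3%, at a median of 5576 to 7342 UMIs per T cell and 2597 to 3927.5 per neutrophil. The tenth of monocytes with most Hmox1 held 61% of its thinned UMIs in the control library and 70.4% to 82.9% in the others. This share rises as UMIs become few, and there were 4007 in 2024 control cells against 386 in 868 cells with 2DG. In control monocytes it was 36.1% for Fth1, 51.6% for Slc11a1 and 60.7% for Mt2, so with Mt2 alike it was not particular to Hmox1. The 100% of Blvrb follows from its UMIs lying in only 8.6% of these cells.

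Blvrb had another order. It stood at 102, 126, 192, 109, 134 and 115 CPM in macrophages, 50.8, 58.7, 87.4, 54.0, 61.5 and 57.5 CPM in monocytes, and 10.9, 26.7, 27.8, 21.2, 25.2 and 19.6 CPM in neutrophils. The 3 ranges did not overlap, and the 2FF library was the highest in each. Blvrb was higher in macrophages than in monocytes by 0.92 (SE 0.056, edgeR adjusted p = 2.7e-06) and than in neutrophils by 2.32 (SE 0.14, adjusted p = 7.2e-09), and higher in monocytes than in neutrophils by 1.32 (SE 0.15, adjusted p = 6.3e-06), all on the log2 scale. Outside the myeloid classes, plasmacytoid dendritic cells (48.5 to 96.2 CPM) and B cells (35.9 to 93.2 CPM) reached the monocyte range, while T cells stayed at 2.79 to 4.97 CPM.

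Iron storage came next. Fth1 stood at 24576, 8993, 12676, 9543, 11591 and 10646 CPM in neutrophils, 11874, 5139, 6829, 5825, 5967 and 6287 CPM in monocytes, and 8175, 6694, 9012, 6496, 8302 and 6831 CPM in macrophages. The control library was far above the others in neutrophils and monocytes, but in macrophages it lay within their range. Fth1 was lower than in neutrophils in macrophages (log2 difference −0.98, SE 0.21, edgeR adjusted p = 0.0010) and in monocytes (−1.10, SE 0.12, adjusted p = 5.2e-06). The difference of macrophages from monocytes did not pass over the 6 libraries (+0.03, SE 0.14), and without the control library macrophages were higher by 0.22 (adjusted p = 0.0062). Non-classical monocytes followed at 2732 to 6623 CPM, plasmacytoid dendritic cells, which overlapped them, at 2647 to 4414 CPM, dendritic cells at 1643 to 2490 CPM, and T, B, NK and plasma cells at 454 to 1316 CPM.

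Ftl1 stood at 3564, 2720, 3569, 2404, 2967 and 2785 CPM in macrophages, 3544, 2141, 2678, 1881, 2303 and 2036 CPM in monocytes and 3632, 1771, 2435, 1858, 2473 and 2193 CPM in neutrophils. These ranges overlapped and none of the 3 class differences passed the test (+0.19 for macrophages over monocytes, adjusted p = 0.085; +0.06 for macrophages over neutrophils; −0.21 for monocytes over neutrophils). Without the control library Ftl1 was higher in macrophages than in monocytes by 0.30 (adjusted p = 3.7e-05). Neutrophils held 4.69 to 6.77 Fth1 UMIs per Ftl1 UMI, macrophages 2.29 to 2.80 and monocytes 2.40 to 3.35. Ftl1-ps1, a processed copy of Ftl1, was listed at 0 to 30.1 CPM, and reads of Ftl1 may be split among such copies.

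The transporters divided the myeloid classes. Ferroportin mRNA was a neutrophil signal: Slc40a1 stood at 127, 68.0, 70.2, 103, 56.1 and 109 CPM in neutrophils, at 4.51, 1.80, 0.92, 0.39, 0.62 and 0.48 CPM in monocytes and at 4.79, 1.5, 4.57, 1.29, 1.15 and 0.43 CPM in macrophages. No library of neutrophils came near those of the other 2 classes. The gene was lower than in neutrophils in macrophages (log2 difference −5.77, SE 0.38, edgeR adjusted p = 1.7e-08) and in monocytes (−6.38, SE 0.34, adjusted p = 6.4e-09). In thinned cells, 10.7% to 17.4% of neutrophils held a Slc40a1 UMI, against at most 0.8% of macrophages and 0.1% of T cells; without thinning it was 13.7% to 32.2% of neutrophils. The sum of the 5 erythroid markers, genes of red cell precursors, which also use ferroportin, was 202, 30.2, 17.9, 2.6, 0 and 3104 CPM in neutrophils. The control and 2FF plus aPDL1 libraries were the highest in both Slc40a1 and this sum, and 2DG plus aPDL1 was the lowest in both. The order differed elsewhere: aPDL1 had 103 CPM of Slc40a1 beside a sum of 2.6 CPM, and 2DG 68.0 CPM beside 30.2 CPM. The part of erythroid RNA in the neutrophil level of Slc40a1 was not tested.

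Tfrc was low in monocytes and macrophages and varied among neutrophils. It stood at 54.8, 20.3, 10.6, 26.5, 30.9 and 21.6 CPM in neutrophils, 12.8, 11.6, 8.83, 13.4, 7.42 and 8.78 CPM in macrophages and 10.7, 9.88, 4.84, 8.88, 6.09 and 6.04 CPM in monocytes. Plasmacytoid dendritic cells held 113 to 269 CPM, above every other class, followed by B cells (31.4 to 62.9 CPM) and T cells (34.7 to 49.7 CPM), which overlapped. The control neutrophils (54.8 CPM) lay above every T cell library and the other neutrophils (10.6 to 30.9 CPM) below. The plasmacytoid cells numbered only 12 to 42 per library, and the highest value came from the 12 cells of the control. Tfrc was lower than in neutrophils in macrophages (log2 difference −1.62, SE 0.27, edgeR adjusted p = 0.00013) and in monocytes (−2.02, SE 0.22, adjusted p = 5.7e-06). Macrophages exceeded monocytes by 0.31 (SE 0.11, adjusted p = 0.043), and leaving out the 2DG, 2FF, aPDL1, 2DG plus aPDL1 or 2FF plus aPDL1 library ended this call (adjusted p = 0.0586, 0.112, 0.119, 0.0588 and 0.0897).

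Slc11a1 was a general myeloid gene. It stood at 173, 112, 119, 94.7, 116 and 152 CPM in monocytes, 144, 98.4, 113, 76.5, 116 and 128 CPM in macrophages, 153, 130, 156, 90.0, 148 and 124 CPM in neutrophils and 133 to 228 CPM in non-classical monocytes, and it did not exceed 9.41 CPM in lymphocytes or dendritic cells. The myeloid ranges overlapped. Within libraries it was lower in macrophages than in monocytes (log2 difference −0.32, SE 0.065, edgeR adjusted p = 0.0029) and than in neutrophils (−0.55, SE 0.12, adjusted p = 0.0011). It was lower in monocytes than in neutrophils (−0.31, adjusted p = 0.038), a call lost without the 2DG (0.102), the 2FF (0.102) or the 2DG plus aPDL1 library (0.0759). Without the library as a block, the differences from monocytes had an adjusted p of 0.21 for macrophages and 0.13 for neutrophils.

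Among the classes with many cells, the metallothioneins were highest in monocytes and macrophages. Mt1 stood at 3216, 748, 671, 949, 1125 and 1124 CPM in monocytes, 2077, 1047, 892, 1056, 1266 and 1380 CPM in macrophages, and 207, 252, 197, 298, 347 and 329 CPM in neutrophils. Mt2 stood at 689, 59.6, 58.3, 100, 108 and 141 CPM in monocytes, 529, 129, 102, 138, 151 and 184 CPM in macrophages, and 44.9, 21.7, 30.5, 56.5, 14.9 and 43.3 CPM in neutrophils. In monocytes and macrophages the control library was the highest for both genes and stood apart from the other 5, whereas in neutrophils it lay within their range. Mt1 was higher than in neutrophils by 1.93 in macrophages (SE 0.15, edgeR adjusted p = 7.9e-08) and by 1.82 in monocytes (SE 0.24, adjusted p = 2.4e-05) on the log2 scale, and Mt2 by 2.10 (SE 0.24, adjusted p = 3.6e-06) and 1.71 (SE 0.33, adjusted p = 0.00069). The difference of macrophages from monocytes did not pass for either gene over the 6 libraries (+0.01, SE 0.15, and +0.33, SE 0.18). Without the control library macrophages were higher in Mt1 by 0.21 (adjusted p = 0.0058) and in Mt2 by 0.53 (adjusted p = 0.0003), and with classes taken from clusters Mt2 was lower in macrophages (−0.82, adjusted p = 0.023). Dendritic cells held 203 to 478 CPM of Mt1 and 23.5 to 89.3 CPM of Mt2, and T cells 39.7 to 130 and 7.82 to 28.5 CPM. The 4 to 24 keratin-positive cells of a library held 355 to 1113 CPM of Mt1. Their Mt2 stood at 17.8 CPM in the control, on 1 UMI, and at 442, 281, 234, 656 and 269 CPM in the treated libraries, on 16 to 244 UMIs, above monocytes and macrophages in each of these 5.

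**Figure D2:**
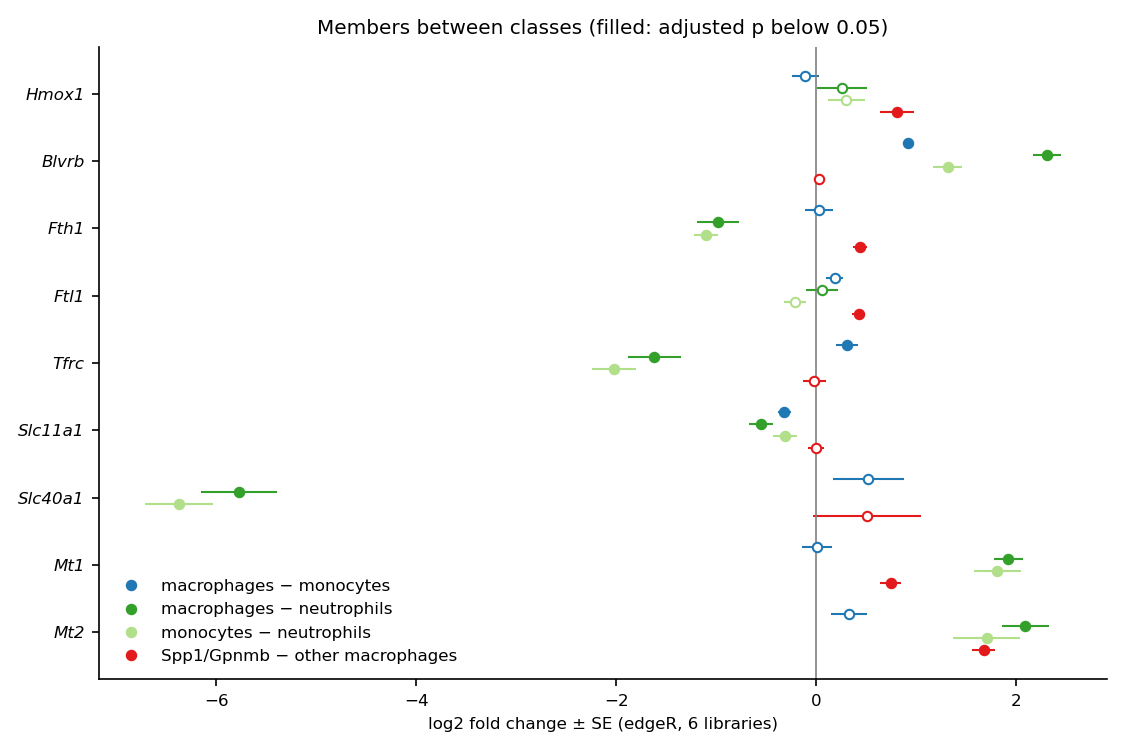
Difference between classes for each member (x axis, log2 scale, with its standard error over 6 libraries), from edgeR with the library as a block; filled points have an adjusted p below 0.05. The last contrast sets macrophages with at least 3 Spp1 and Gpnmb UMIs against the others. Slc40a1 lies furthest to the neutrophil side (−5.77 and −6.38) and Blvrb furthest to the macrophage side (+2.32).

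Of the 9 members, 2 (Blvrb and Tfrc) were higher and 1 lower in macrophages than in monocytes, where 24.9% and 26.6% of the 13811 genes tested were higher and lower. Against neutrophils, 3 members were higher and 4 lower in macrophages (36.6% and 27.2% of 14715 genes), and 3 higher and 4 lower in monocytes (31.2% and 25.7% of 13435 genes). With 9 genes these counts are a description.

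Mt1 and Mt2 also moved together from cell to cell. In thinned cells the correlation of log2 UMIs + 1 was 0.39 to 0.62 in monocytes, 0.35 to 0.62 in macrophages and 0.25 to 0.49 in neutrophils over the 6 libraries, the cells of a library sharing its preparation. In control monocytes, 42.5% of cells with a Mt1 UMI had a Mt2 UMI, and 3.3% of those without one did. The 2 genes did not keep 1 proportion across libraries. There were 4.67 Mt1 UMIs per Mt2 UMI in control monocytes and 7.96 to 12.6 in those of the other libraries, and 3.93 and 7.5 to 8.74 in macrophages.

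The genes whose levels were most alike to each member over 48 sums of class and library, among 6355 genes with a mean of at least 20 CPM, were by Pearson's r Ccl6 (0.96), Thbs1 (0.95) and Sh2b2 (0.95) for Hmox1. For Slc40a1 they were the neutrophil genes Asprv1 (0.98), Cxcr2 (0.98) and Il1f9 (0.97), and for Slc11a1 Pla2g7 (0.99), Klra2 (0.98) and Fgd4 (0.98). Fth1 lay closest to Ccr1 (0.98), Bst1 (0.98) and Il1a (0.97), and Ftl1 to App (0.97), Atp6v0c (0.97) and Eif4ebp1 (0.96). Blvrb lay closest to Lgmn (0.92), Lmo2 (0.90) and Apoe (0.90), and Tfrc to 1810026B05Rik (0.92), Rmnd5b (0.90) and Dtnb (0.89). Mt1 and Mt2 were each other's nearest gene (0.93). The sums share 6 libraries and the same 8 classes, and within the 12 sums of monocytes and macrophages only 3 of the 27 pairs were again among the 3 nearest, Mt1 and Mt2 in both directions (0.98) and Fth1 with Bst1 (0.91).

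The treatments were compared next, to ask how the members' levels in each myeloid class stood after 2DG, 2FF or aPDL1 alone. With 1 library a condition there is no test: a ratio compares 2 mice, the treatment and the mouse cannot be told apart, and all 3 ratios share the 1 control library. Ratios are log2 of CPM + 5 for genes whose UMIs in both libraries add up to at least 50, intervals are 95% and cover counting error only, and a ratio of at least 2-fold is counted.

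In monocytes Hmox1, Mt1 and Mt2 were at least 2-fold below the control in each of the 3 treated mice. The log2 ratios of 2DG, 2FF and aPDL1 over control were −1.99 (interval −2.07 to −1.92), −1.84 (−1.90 to −1.78) and −2.50 (−2.57 to −2.43) for Hmox1. They were −2.10 (−2.14 to −2.06), −2.25 (−2.29 to −2.21) and −1.76 (−1.79 to −1.73) for Mt1, and −3.43 (−3.56 to −3.29), −3.45 (−3.57 to −3.34) and −2.72 (−2.81 to −2.64) for Mt2. Mt2 was thus the member furthest below the control, and the aPDL1 mouse had the lowest Hmox1 but the highest Mt1 and Mt2 of these 3. Fth1 followed at −1.21, −0.80 and −1.03, Ftl1 at −0.73, −0.40 and −0.91 and Slc11a1 at −0.60, −0.52 and −0.83. Slc40a1 rested on 95 UMIs in the control and 4 to 12 in the others. Blvrb went the other way, at +0.19, +0.73 and +0.08, and the Tfrc intervals for 2DG and aPDL1 included 0. Counted over the 9 members, 4 were at least 2-fold lower with 2DG, 3 with 2FF and 4 with aPDL1, where 3.48%, 3.28% and 2.29% of all genes were. The median ratio of all genes was 0.167, 0.121 and 0.143. The control also exceeded these 3 mice in classes without ratios here. In non-classical monocytes Hmox1 was 342 CPM in the control and 112, 165 and 108 CPM in them. Mt2 was 202 CPM there against 26.3, 10.2 and 21.8 CPM. In T cells, taken as the background of free RNA, Hmox1 was 16.0 CPM against 6.09, 6.96 and 6.58 CPM. Mt1 was 130 CPM in T cells against 39.7, 56.0 and 107 CPM.

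In macrophages the distances were smaller. Hmox1 stood at −1.28 (−1.33 to −1.23), −0.88 (−0.92 to −0.84) and −2.08 (−2.14 to −2.01), Mt1 at −0.99, −1.21 and −0.97, and Mt2 at −1.99, −2.32 and −1.90. Fth1 was close to the control (−0.29, +0.14 and −0.33), and Ftl1 with 2FF was at 0.00. Blvrb was at +0.30, +0.89 and +0.10. At least 2-fold lower were Hmox1 and Mt2 with 2DG, Mt1 and Mt2 with 2FF, and Hmox1 and Mt2 with aPDL1, that is 2 of 9 members each time, where 1.11%, 1.7% and 1.07% of all genes were.

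Neutrophils shared the lower Hmox1 and ferritin but not the lower Mt1. Hmox1 stood at −2.48 (−2.72 to −2.25), −1.86 (−2.05 to −1.68) and −1.28 (−1.46 to −1.11), Fth1 at −1.45, −0.95 and −1.36, Ftl1 at −1.03, −0.58 and −0.97, and Tfrc at −1.24, −1.94 and −0.93 (16 to 30 UMIs in the treated libraries). Mt1 stood at +0.28, −0.07 and +0.52, and Slc40a1 at −0.86, −0.81 and −0.29. Mt2 differed from Mt1: its level was 44.9 CPM in the control, below that at 21.7 and 30.5 CPM with 2DG and 2FF (31 and 46 UMIs), and above it at 56.5 CPM with aPDL1 (64 UMIs). At least 2-fold lower were Hmox1, Fth1, Ftl1 and Tfrc with 2DG, Hmox1 and Tfrc with 2FF, and Hmox1 and Fth1 with aPDL1, where 4.89%, 5.06% and 3.7% of all genes were. Blvrb was at least 2-fold higher with 2FF (+1.05, 42 UMIs) and just under that limit with 2DG (38 UMIs), where 12.7% and 13.4% of all genes were at least 2-fold higher, so that Blvrb lay among many other genes there.

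**Figure D3:**
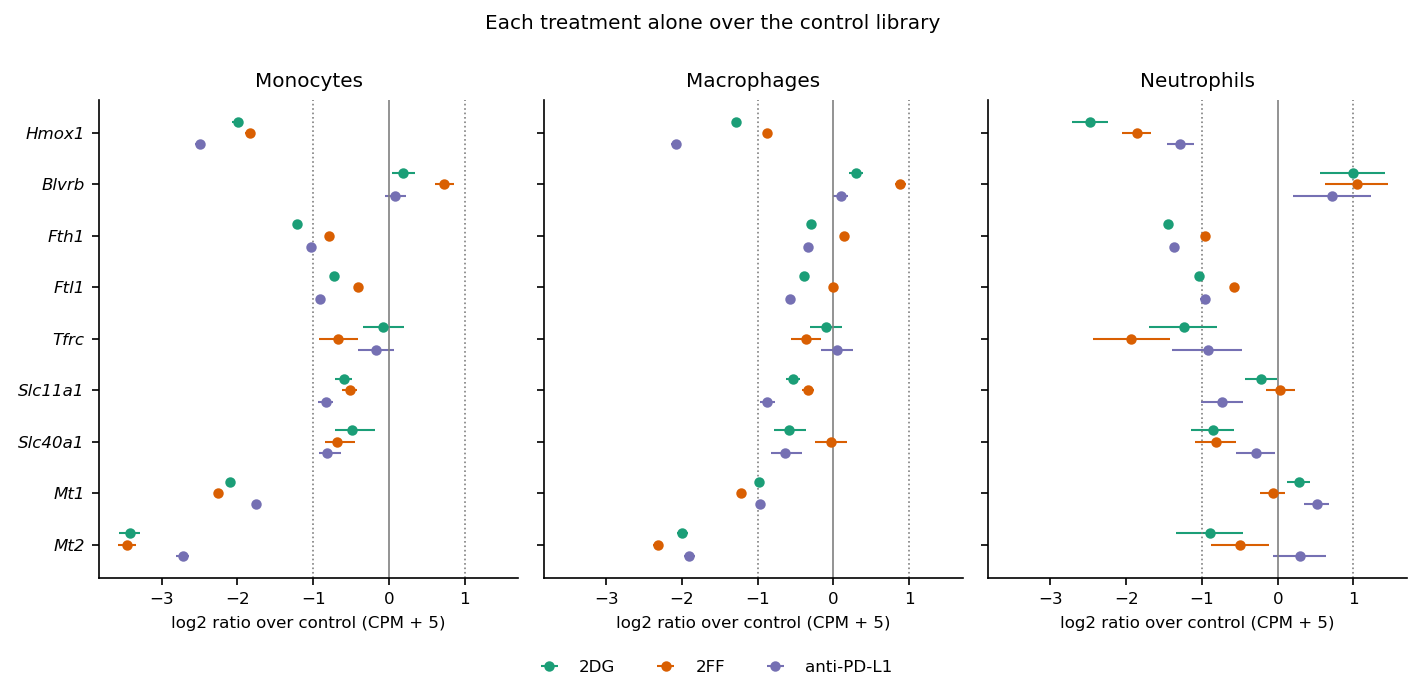
Log2 ratio of CPM + 5 over control (x axis) of each member for the 2DG, 2FF and aPDL1 libraries in monocytes, macrophages and neutrophils (panels), with 95% counting intervals; dotted lines mark 2-fold. Hmox1, Mt1 and Mt2 lie left of the lower line in monocytes for all 3 libraries, and Mt1 lies near 0 in neutrophils.

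Most control monocytes lay in a cluster that held a smaller part of the monocytes of each treated mouse. Clusters made without the 9 members, an alternative added after the data had been seen, put 65.4% of control monocytes in cluster 8, led by Inhba, Spp1, F13a1, Nos2 and Arg1 with Mt2 and Hmox1 also among its 10 leading genes, against 12.3%, 16.7%, 21.4%, 15.6% and 34.8% of those of the other libraries. The treated monocytes lay mostly in clusters 9 (led by Lyz2, Chil3, Ly6c2 and Vcan), 11 (led by Adgre4 and Ace, with more markers of non-classical than of classical monocytes) and 12 (led by Ccl24 and Spon1). With 2FF plus aPDL1, cluster 8 was still the largest single cluster of monocytes (34.8%), ahead of cluster 9 (30.1%). The sum of Spp1 and Gpnmb, markers of a tumor macrophage state, was 4510, 599, 501, 684, 400 and 965 CPM in monocytes and 2760, 905, 1429, 1157, 634 and 1504 CPM in macrophages, and 61.5% of control monocytes had at least 3 UMIs of this pair against 10.7% to 23.4%. Values are therefore given by cluster number as well.

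Within cluster 8 the control and treated monocytes were close in Fth1. It stood at 14518, 15163, 14862, 11883, 11140 and 10646 CPM there, with ratios over control of 0.06, 0.03 and −0.29 for 2DG, 2FF and aPDL1. Hmox1 stood at 1357, 1032, 871, 442, 906 and 541 CPM, with ratios of −0.39, −0.64 and −1.61, so that the aPDL1 ratio alone passed 2-fold. Mt1 (4250.5, 1663, 1592, 2461, 2391 and 1865 CPM) and Mt2 (969, 334, 253, 416, 433 and 328 CPM) stayed apart from the control, with ratios of −1.35, −1.41 and −0.79 for Mt1 and −1.52, −1.91 and −1.21 for Mt2. In cluster 9 Hmox1 stood at 210, 85.3, 92.1, 106, 138 and 143 CPM, with ratios of −1.25, −1.14 and −0.95, and Mt2 ratios were −1.53, −0.75 and −1.26. In cluster 12 the Hmox1 ratios were near 0 for 2DG and 2FF and −0.87 for aPDL1, while those of Mt2 were −1.83, −2.50 and −2.18. The Mt2 ratio was thus negative in each of these clusters and libraries, and that of Hmox1 depended on the cluster.

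**Figure D4:**
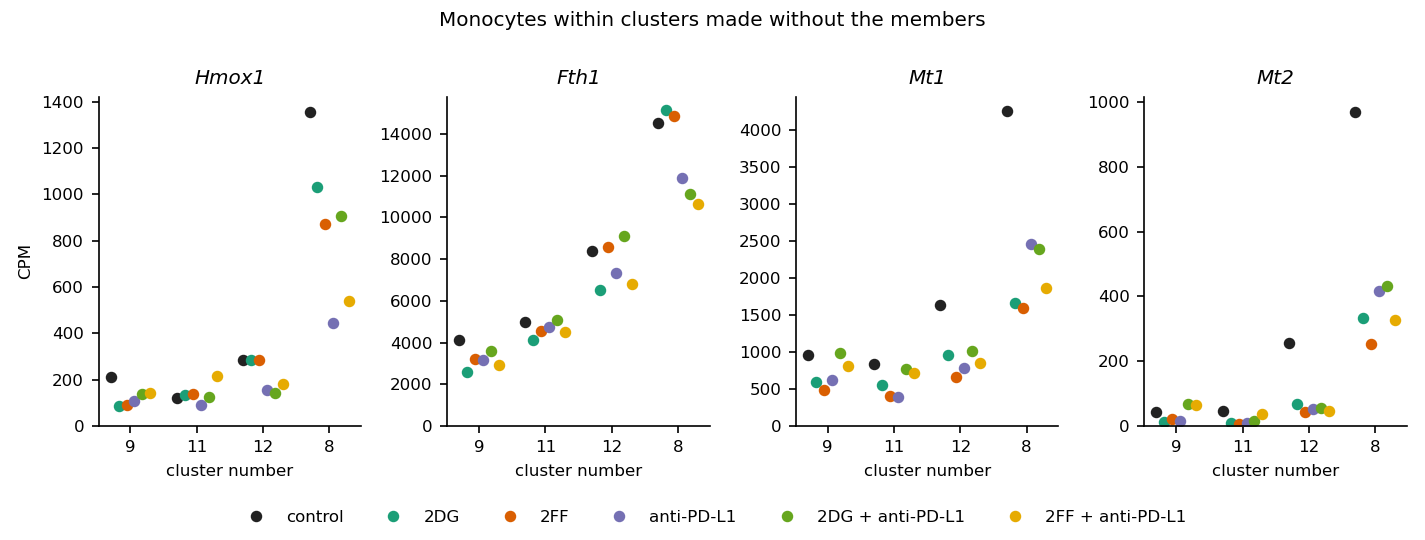
Level of Hmox1, Fth1, Mt1 and Mt2 (y axis, CPM, logarithmic) in monocytes of clusters 9, 11, 12 and 8 (x axis), made without the 9 members, with 1 point per library. Fth1 is similar in all libraries within cluster 8 (10646 to 15163 CPM), whereas the control is the highest there for Mt1 (4250.5 CPM) and Mt2 (969 CPM).

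Macrophages showed the same dependence on the cluster. In cluster 8, which held 39.1% of control macrophages, Hmox1 ratios were +0.25, +0.26 and −1.73 and those of Mt2 −0.67, −1.76 and −1.05. In cluster 13, the C1q macrophages (32.7% of control macrophages and 39.3% to 58.7% of the others), Hmox1 stood at −1.0, −0.36 and −1.37 and Mt2 at −1.07, −0.98 and −1.39, while Mt1 was near the control (−0.14, −0.24 and −0.22). Cluster 12 held 12.8% to 18.7% of the treated macrophages. Cluster 18, with a median of 1061 UMIs, held 11.7% of macrophages with 2DG and 12.7% with 2FF plus aPDL1. It was led by Cma1, Hbb-bs, Tpsb2, Hba-a1 and Cpa3, with 4 erythroid markers and 1 mast or basophil marker among its 10 leading genes. The part of cluster 18 in the macrophage ratios was not tested. Among neutrophils, 75.0% of the control cells lay in cluster 5, of whose cells 84.2% came from that library. Of the treated cells 48.7% to 72.1% lay in cluster 19. The clusters were made without a correction for library, so a different kind of cell and a shift of the whole library cannot be told apart here. Fth1 was 28365 CPM in cluster 5 and 7828 CPM in cluster 19 of the control, and within cluster 19 the ratios were 0.11, 0.69 and 0.04. Hmox1 stood at −1.20, −0.45 and −0.81 within cluster 19, and Mt1 at −0.54, −0.86 and −0.06.

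Other measures also moved with the libraries. The erythroid marker sum was 4.8, 2.5, 6.1, 1.0, 135 and 143 CPM in monocytes and 5.0, 46.7, 17.4, 1.6, 62.6 and 4.2 CPM in macrophages. Of the other marker lists in monocytes, the macrophage sum was 62.6 to 95.4 CPM, the neutrophil sum 357 to 577 CPM and the T cell sum 4.0 to 24.7 CPM. The dissociation and stress list summed to 14434, 13217, 15032, 14711, 17399 and 16303 CPM in monocytes. The part of the Spp1 and Gpnmb state, of erythroid RNA and of depth in the ratios was not tested, beyond the values by cluster. With monocytes limited to those under 3 Spp1 and Gpnmb UMIs, the ratios were −1.65, −1.25 and −1.78 for Hmox1 and −2.90, −2.67 and −2.21 for Mt2. With monocytes of at least 3 such UMIs they were −0.45, −0.84 and −1.94 for Hmox1, so that the 2DG and 2FF ratios no longer reached 2-fold, and −1.53, −1.98 and −1.38 for Mt2. With cells of at least 2000 UMIs Hmox1 stood at −2.00, −1.84 and −2.50.

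Within macrophages this state could be tested, since each library holds both kinds. Macrophages with at least 3 Spp1 and Gpnmb UMIs had more Mt2 than the others (142 to 720 against 59.5 to 191 CPM), by 1.68 on the log2 scale (SE 0.11, edgeR adjusted p = 3.2e-05 with the library as a block). They also had more Hmox1, by 0.81 (SE 0.17, adjusted p = 0.0096), Mt1, by 0.75 (SE 0.11, adjusted p = 0.0013), Fth1, by 0.44 (SE 0.072, adjusted p = 0.0024), and Ftl1, by 0.43 (SE 0.062, adjusted p = 0.0013). Blvrb, Tfrc, Slc11a1 and Slc40a1 did not pass the test. Thus 5 of 9 members were higher and none lower, where 7.83% and 6.65% of 13049 genes were. The split selects deeper cells, since it counts UMIs. Without the block Mt2 alone passed (adjusted p = 0.28 for Hmox1, 0.14 for Fth1, 0.12 for Ftl1 and 0.058 for Mt1), and with the split made over macrophages named from clusters Hmox1 did not (0.34).

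The mice given both an analog and aPDL1 were compared with those given either alone. In monocytes Hmox1 with 2DG plus aPDL1 stood at +0.47 over aPDL1 (0.38 to 0.56) and −0.03 over 2DG (−0.12 to 0.06), and with 2FF plus aPDL1 at +0.75 over aPDL1 (0.67 to 0.84) and +0.10 over 2FF (0.02 to 0.17). The only member of monocytes and macrophages past 2-fold was Mt2 in monocytes with 2FF plus aPDL1 over 2FF, at +1.21 (1.07 to 1.34), where 0.28% of all genes were at least 2-fold higher. Slc11a1 with 2FF plus aPDL1 exceeded aPDL1 by 0.65 in monocytes and 0.70 in macrophages. In macrophages Hmox1 with 2FF plus aPDL1 stood at +0.56 over aPDL1 and −0.64 over 2FF, and Blvrb at −0.71 over 2FF. In neutrophils Mt2 with 2DG plus aPDL1 was at −1.63 over aPDL1 (−2.34 to −0.91), on 13 against 64 UMIs, where 2.18% of all genes were at least 2-fold lower. T cells held 26.0 CPM of Mt2 with aPDL1 and 8.53 CPM with 2DG plus aPDL1.

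2DG and 2FF were set side by side over the same control and over the same aPDL1 library. Their doses and routes differ, so no comparison of the 2 analogs was made.

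aPDL1 averaged over its 3 backgrounds (none, 2DG and 2FF) was the treatment contrast tested, with 2 residual degrees of freedom. No member passed the edgeR test, and 0% of 12590 genes in monocytes and 0.0072% of 13883 in macrophages did. The same test gave 493 and 726 genes at an unadjusted p below 0.05, about the share that this threshold passes where no gene differs. In macrophages Hmox1 stood at −1.06 (adjusted p = 0.81) and Slc40a1 at −1.84 (adjusted p = 0.76). DESeq2 called 19 genes higher and 3 lower in monocytes and 36 and 8 in macrophages. Without the library given aPDL1 alone, Mt1 (+0.78, adjusted p = 0.024) and Mt2 (+1.18, adjusted p = 0.00049) were called higher in monocytes.

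Around the members, 8 lists of related genes were counted. Of heme synthesis, 0 of 7 to 8 measured genes passed 2-fold in monocytes in any of the 3 libraries (list medians 0.23, 0.24 and 0.15), and 0 of 8 in macrophages. As 3.48%, 3.28% and 2.29% of all genes were at least 2-fold lower in monocytes and 1.11%, 1.7% and 1.07% in macrophages, a count of 0 in a list this short says little. Heme uptake, transport and breakdown (5 measured) and zinc and copper handling (12 measured) had none in monocytes either. Of the iron list, 2 genes were higher and 1 lower of 15 with 2DG, 1 and 1 of 14 with 2FF and 2 and 1 of 15 with aPDL1. The lower gene was each time Ncoa4, the receptor that carries ferritin to the lysosome, at −1.13, −1.10 and −1.07. Lactoferrin (Ltf) was at +2.31 with 2DG and +1.80 with aPDL1, and Hfe, a partner of the transferrin receptor, at +1.68 with 2FF. No share of all genes at least 2-fold higher is given for these monocyte ratios, so the higher counts are a description only.

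Among regulators in monocytes, Bach1, a repressor of Hmox1 that heme inactivates, was above the control at +1.54, +1.41 and +1.72. As for the iron list, no share of all genes at least 2-fold higher is given beside these values. The part of Bach1 in the Hmox1 ratios was not tested. Fbxl5, the iron sensor that removes an iron regulatory protein, was at −1.05, −0.58 and −1.33. Of 7 Nrf2 targets none was 2-fold higher and 1, 1 and 2 were lower, among them the cystine carrier Slc7a11 at −1.80, −1.56 and −1.98. In macrophages Slc7a11 stood at −1.57 with 2DG and −1.44 with aPDL1, and Nr1h3, a sterol receptor, at +1.33 with 2FF. The dissociation and stress list had 3, 1 and 0 of 20 genes 2-fold lower in monocytes (medians −0.04, −0.02 and −0.10) and 3, 3 and 5 in macrophages (medians −0.39, −0.18 and −0.38).

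Between classes, the lists are given by their counts, beside the 24.9% of all genes that were higher and the 26.6% that were lower in macrophages than in monocytes. Macrophages exceeded monocytes in 3 of 8 genes of heme synthesis, with Alad at +1.17 (edgeR adjusted p = 9.8e-05), and were lower in 1, Alas1, the first enzyme of the pathway, at −0.64 (adjusted p = 5.3e-05). Of heme uptake, transport and breakdown, 3 of 6 were higher, with the hemoglobin scavenger receptor Cd163 at +3.78, and the heme exporter Flvcr1 was lower at −0.71. Of the iron list 4 of 16 were higher (the ferroxidase Cp at +2.56 and the ferrireductase Steap3 at +1.35) and 6 lower, with Ltf at −4.73 and the siderophore binder Lcn2 at −4.28. Iron sensing had 2 of 4 higher and none lower, zinc and copper handling 2 higher and 3 lower of 12, the regulators 1 higher (Nr1h3, +0.93) and 2 lower (Bach1, −0.96) of 7, the Nrf2 targets 0 higher and 2 lower of 7, and dissociation and stress 3 higher and 15 lower of 20. The median over all genes was −0.0035.

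Against neutrophils, 36.6% of all genes were higher and 27.2% lower in macrophages, and 31.2% higher and 25.7% lower in monocytes. Macrophages were higher in 6 of 8 genes of heme synthesis and lower in 1 (Alas1, −1.08), with a list median of 1.10 beside 0.22 over all genes. They were higher in 4 of 6 and lower in none of heme uptake, transport and breakdown (Cd163, +6.25), and higher in 10 and lower in 5 of 16 of the iron list (Steap3, +4.75; Lcn2, −8.28). Of iron sensing Aco1, an iron regulatory protein, was at +2.48 and Fbxl5 at −1.20. Nrf2 targets had 1 higher (Prdx1, +2.12) and 5 lower (Nqo1, −3.61) of 8. In monocytes against neutrophils, 4 were higher and 1 lower of 8 for heme synthesis, 3 and 0 of 5 for heme uptake, transport and breakdown, 8 and 5 of 16 for the iron list, and 1 and 6 of 8 for the Nrf2 targets.

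Macrophages with at least 3 Spp1 and Gpnmb UMIs had 4 of 7 Nrf2 targets higher and none lower than other macrophages: Slc7a11 (+0.79, edgeR adjusted p = 0.010), Gclm (+0.47), Srxn1 (+0.46) and Prdx1 (+0.26). Of all genes 7.83% were higher and 6.65% lower in this contrast. Heme uptake, transport and breakdown had 2 of 6 higher, the receptor Lrp1 (+0.61) and the lysosomal heme transporter Slc48a1 (+0.44). Of the regulators Spic (−3.01), a factor of iron-recycling macrophages, Nr1h3 (−0.55) and Bach1 (−0.33) were lower and Mafg (+0.32) was higher. Cp was lower (−1.82). Of heme synthesis 1 of 8 was higher (Alas1, +0.28), and of dissociation and stress 2 were higher and 2 lower of 20.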

How the data were processed

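Single-cell RNA sequencing libraries (10x 3′) of 1 mouse per condition were analysed, grouped by the treatment in the labels. The values deposited by the authors are whole UMI counts of each gene in each called cell, without normalization, from reads aligned to mouse mm10; the file headers give Cell Ranger 7.0.0 and the submitters' processing notes 3.1.0. The labels name lymph node and the methods digested tumors.

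Cells with under 250 genes or over 5% mitochondrial UMIs were left out. Cells were classed by UMIs of marker genes (at least 3 for T, B and NK cells, 5 for the other main classes, and under 2 lymphocyte UMIs for myeloid classes); these minimums were settled after the marker UMIs had been seen. Cell names given in the study were not taken over. Cells resembling simulated doublets (3573) were kept, and removed in an alternative. Cells of 1 class in 1 library were added up before any ratio or test. Libraries held 61859753 to 73885214 UMIs before the cell filter, and intervals (95%, exact Poisson) cover counting error only.

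Ratios are log2 of CPM + 5 for genes reaching 50 UMIs over both libraries. With 1 library per condition no test between single treatments was made. Classes were tested with edgeR 4.0.16 (quasi-likelihood, TMM, library as a block, 5 residual degrees of freedom), and aPDL1 averaged over 3 backgrounds with the background as a block; p-values were Benjamini-Hochberg adjusted over all genes tested, with a threshold of 0.05. As each library holds all classes, the block pairs the classes by mouse. DESeq2 1.42.0 was an alternative. Shares of cells were taken after thinning to 2000 UMIs, which left out 12.2% of control monocytes and 1.2% to 2.3% of the other monocytes, 3.9% to 10.0% of macrophages and 7.2% to 17.6% of neutrophils. Clusters without the members used scanpy 1.11.5 (2000 variable genes, 30 components, 15 neighbours, Leiden resolution 1; 29 clusters). The scripts ran in Python 3.11.15 and R 4.3.3 and were tested on simulated data.

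Named are the 9 members, the genes of 8 hand-written lists with the largest and smallest values, and the 3 genes most alike to each member. The members and the lists were chosen with earlier results of these data known. Alternatives covered cell filters, doublets, class rules, thinning, the CPM added, low-count filters, scaling, the block and leaving out each library.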

Additional observations from a re-analysis of the deposited data

Results flagged for a closer look

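Differences between classes stood out for 3 ratios because the ratios of the same 2 libraries pointed in opposite directions and their counting intervals did not overlap. With 1 library per condition these differences were not tested. Mt1 with 2DG over control was at −2.10 (−2.14 to −2.06) in monocytes and at +0.28 (0.12 to 0.43) in neutrophils. Mt1 with aPDL1 over control was at −1.76 (−1.79 to −1.73) in monocytes and at +0.52 (0.35 to 0.68) in neutrophils. Mt2 with 2DG plus aPDL1 over aPDL1 was at −1.63 (−2.34 to −0.91) in neutrophils, on 13 against 64 UMIs, and at +0.12 (0.04 to 0.21) in macrophages. In T cells Mt2 stood at 26.0 CPM with aPDL1 and at 8.53 CPM with 2DG plus aPDL1. In thinned cells of these libraries, 3.6% and 1.7% of neutrophils held a Mt2 UMI, on 9 and 4 cells, beside 3.2% and 1.2% of T cells. The part of free RNA in this neutrophil ratio was not tested. Within neutrophil cluster 19 the Mt1 ratios over control were −0.54 for 2DG and −0.06 for aPDL1, so the positive neutrophil ratios were not found within that cluster.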

How the results depend on the processing

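At least 2-fold ratios numbered 12 of 59 measured in monocytes (9 to 15 under the alternatives) and 6 of 60 in macrophages (5 to 9). Ratios of neutrophils were not recomputed. Values called as reported or under the alternative that changed sign were Fth1 in monocytes with 2DG, at +0.095 among cells with at least 3 Spp1 and Gpnmb UMIs, Mt2 in macrophages against monocytes with classes from clusters (−0.82), and, without the aPDL1 library, Mt1 (+0.78) and Mt2 (+1.18) in monocytes for averaged aPDL1, whose values leaving out 1 library ran from −0.64 and −1.04 upward. Genes higher and lower in macrophages than in monocytes, 3434 and 3680, became 1496 and 1815 after thinning to 1000 UMIs, and 2197 lower without the replicate block. For Spp1 or Gpnmb macrophages, 1022 higher and 868 lower became 455 and 472 with classes from clusters, 501 and 327 after thinning, 227 and 138 without the block, 575 lower with DESeq2, and 668 to 953 higher and 578 to 925 lower leaving out 1 library. For averaged aPDL1, the 0 higher and 0 lower genes of monocytes became 19 and 3 with DESeq2, 11 and 4 without a low-count filter and 0 to 182 and 0 to 34 leaving out 1 library. The 1 higher and 0 lower of macrophages became 0 higher with doublets removed, after thinning or without the block, 36 and 8 with DESeq2, 38 and 18 without the filter, 5 lower with classes from clusters, and 0 to 65 and 0 to 8 leaving out 1 library. Ftl1 in monocytes with 2DG, under 2-fold at −0.73, was at +0.12 among cells with at least 3 Spp1 and Gpnmb UMIs. The cause of these shifts was not tested. Slc40a1 and Tfrc rested on few UMIs in monocytes, and Mt2 and Blvrb in treated neutrophils.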
